A study of Mus musculus with 13 samples.

Results

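RNA-seq counts of 46 genes of the DNA damage checkpoint and of DNA repair were examined in mouse Th17 cells, the CD4+ helper T cells that make interleukin 17. The genes were given as a list of symbols, grouped by function and with no threshold on their counts, and all 46 were found among the 56941 gene rows and passed the filter on low counts that left 14681 genes for testing. They fall into 7 roles: 12 checkpoint genes, 13 of homologous recombination, 7 of the Fanconi pathway, 6 of end joining, 2 of mismatch repair, 4 of base excision and single-strand break repair and 2 of nucleotide excision repair. The study asks what Chaf1b, a subunit of the histone chaperone CAF-1 that places new histones behind the replication fork, does in Th17 cells. Naive CD4+ T cells from mouse spleen were activated and kept in Th17-polarizing culture for 72 hours, and RNA was sequenced from 3 libraries labelled wild type (genotype Chaf1bWT) and 3 labelled KO (Chaf1bfl/fl;Il17fCre+, also written Chaf1b-/-). In the KO cultures Cre comes from the Il17f locus or promoter, so deletion is limited to cells that have switched Il17f on. The labels do not say whether the wild-type mice carried the Cre or the floxed alleles or how old the mice were. The titles call the libraries of a genotype biological replicates without saying whether each came from a separate mouse, so a p-value here speaks of the spread among these libraries.

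As background, the checkpoint kinase ATR, with its partner ATRIP, is recruited to single-stranded DNA at stalled forks, is switched on by TOPBP1 through the RAD9-RAD1-HUS1 clamp loaded by RAD17, and signals through claspin to CHK1, while ATM answers broken ends and signals through CHK2; WEE1 holds back the cyclin-dependent kinases. Broken ends are rejoined directly by end joining or, in dividing cells, copied from the sister chromatid by homologous recombination, and the Fanconi proteins deal with crosslinks and blocked forks. Mismatch, base excision and nucleotide excision repair replace wrong, damaged or bulky bases. Activated T cells divide fast, and genes of replication and of recombination are commonly transcribed most in late G1 and S phase.

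The 250 bases before the annotated start are shown for the 2 members whose level passed the test, Parp1 and Rad54l, and, for contrast, for the 2 other members with the highest mean CPM (counts scaled to a common library size), Topbp1 and Trp53bp1. The sequences come from RefSeq on GRCm38.p6, a build that need not be the one the reads were aligned to, and were matched by symbol, which succeeded for 38 of 46 members. Parp1 is at chr1:180568641-180568890 (plus strand), Rad54l at chr4:116123691-116123940 (minus), Topbp1 at chr9:103305077-103305326 (plus) and Trp53bp1 at chr2:121271408-121271657 (minus). Capitals mark E2F words (TTTCCCGC, TTTGGCGC, TTTCGCGC or TTTGCCGC), the CCAAT word and the GC box word (GGGCGG), each on either strand, 5′ to 3′ along the gene's strand.
Parp1: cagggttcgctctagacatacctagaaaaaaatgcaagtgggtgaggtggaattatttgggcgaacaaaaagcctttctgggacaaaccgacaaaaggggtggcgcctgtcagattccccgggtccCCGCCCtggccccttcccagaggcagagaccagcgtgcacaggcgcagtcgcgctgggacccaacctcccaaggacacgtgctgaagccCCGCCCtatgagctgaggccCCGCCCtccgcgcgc
Rad54l: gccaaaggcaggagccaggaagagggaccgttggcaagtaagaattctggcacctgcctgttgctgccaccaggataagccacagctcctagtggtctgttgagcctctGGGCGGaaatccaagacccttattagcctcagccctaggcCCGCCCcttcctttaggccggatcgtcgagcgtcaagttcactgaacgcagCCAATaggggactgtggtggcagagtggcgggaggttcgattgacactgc
Topbp1: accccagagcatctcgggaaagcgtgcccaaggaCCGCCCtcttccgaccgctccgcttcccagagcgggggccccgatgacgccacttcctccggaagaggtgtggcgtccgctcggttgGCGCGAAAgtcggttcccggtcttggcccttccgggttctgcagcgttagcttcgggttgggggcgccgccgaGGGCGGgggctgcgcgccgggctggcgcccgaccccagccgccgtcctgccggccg
Trp53bp1: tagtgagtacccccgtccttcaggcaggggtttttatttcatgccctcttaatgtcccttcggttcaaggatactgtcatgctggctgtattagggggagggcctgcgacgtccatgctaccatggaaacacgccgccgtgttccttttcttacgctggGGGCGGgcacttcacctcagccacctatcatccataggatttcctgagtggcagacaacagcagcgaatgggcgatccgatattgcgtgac
Neither Parp1 nor Rad54l holds an E2F word in these 250 bases, and Topbp1 has TTTCGCGC on the minus strand, with its outermost base 129 bases before the start. Parp1 has 3 GC boxes and no CCAAT, Rad54l 2 GC boxes and 1 CCAAT, Topbp1 2 GC boxes and Trp53bp1 1. Over all members with a sequence, an E2F word stood in 6 of 38 (15.8%), namely Topbp1, Chek2, Brca2, Bard1, Fancg and Xrcc6, against 1.91% of 27018 genes with an entry and 3.53% of the 9962 of them that were tested. The CCAAT word stood in 47.4% of the members against 36.9% of the tested genes, and the GC box in 55.3% against 59.2%. The cell cycle word TTTGAA stood in 5.26% of the members against 10.7% of the tested genes. The 6 members with an E2F word had log2 fold changes from -0.07 to 0.31 with a median of 0.13, and the 32 without one from -0.35 to 0.49 with a median of 0.04, so the ranges overlapped. A word is a run of letters only, not a measured site.

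Each library held 35708879 to 45232055 counts, of which the members drew 59337 to 77447. The median coefficient of variation of a member was 6.21% among the WT libraries and 5.31% among the KO libraries. WT replicate 1 stood apart: its counts differed from those of the other WT libraries by a chi-square per degree of freedom of 18.8 and 33.1, against 7.54 between WT replicates 2 and 3 and 4.19 to 4.53 among the KO libraries. It was the lowest WT library for 28 of 46 members (60.9%), against 38.3% of all tested genes. Members whose call differs without it are named with the counts of calls. The targeted gene could not be used to check the labels, since counts are summed over all exons and the deleted part is not stated: Chaf1b had 13.2, 11.4 and 11.5 CPM in WT and 16.3, 14.9 and 13.5 in KO (log2 fold change 0.31 ± 0.11 (SE), edgeR's quasi-likelihood test, adjusted p = 0.130). Without WT replicate 1 Chaf1b was called higher in the KO libraries (0.38, adjusted p = 0.0138). The libraries are therefore called KO and WT by their labels. Chaf1a, which encodes the partner subunit, rose (0.32 ± 0.06, adjusted p = 0.0107). Reads of the Th17 and CD4 genes Il17a, Il17f and Cd4 were present in every library. Il17a went from a WT mean of 66.4 to a KO mean of 8.98 CPM and Il17f from 41.4 to 5.83 (edgeR adjusted p = 0.0181 and 0.0135). The KO cultures carry Cre at the Il17f locus or promoter, and its part in the Il17f counts was not tested. WT replicate 1 was well above the other WT libraries in both genes. The WT values were 104, 52.4 and 43.1 CPM for Il17a and 64.9, 33.5 and 25.8 for Il17f.

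Few of the repair genes passed the test, as did few of all tested genes. Rad54l rose in the KO libraries and Parp1 fell, and the other 44 members did not pass the test (edgeR's quasi-likelihood test, Benjamini-Hochberg adjustment over 14681 genes, threshold 0.05). The 2 called members are 4.35% of 46, against 6.39% of all tested genes, 3.92% called higher and 2.47% called lower. In other fits the order of these shares differed: 26.1% of members against 20% of all genes with limma-voom and quality weights, 10.9% against 6.01% without a filter on low counts, and 4.35% against 2.42% without WT replicate 2. The log2 fold changes (KO over WT) ran from -0.35 for Atm to 0.49 for Rad54l with a median of 0.08, against a median of -0.01 over all tested genes, and 32 of 46 were above 0 against 48.7% of all tested genes. All 3 KO libraries lay above all 3 WT libraries for 13 members and below them for 2, together 32.6%, against 26.8% of all tested genes (14.4% above and 12.4% below). An unadjusted p under 0.05 was reached by 15 members (32.6%) against 21.1% of all tested genes. The 95% intervals of 43 members lay within a 1.5-fold change in either direction, so changes above that size were outside the interval for most of the list.

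**Figure D1:**
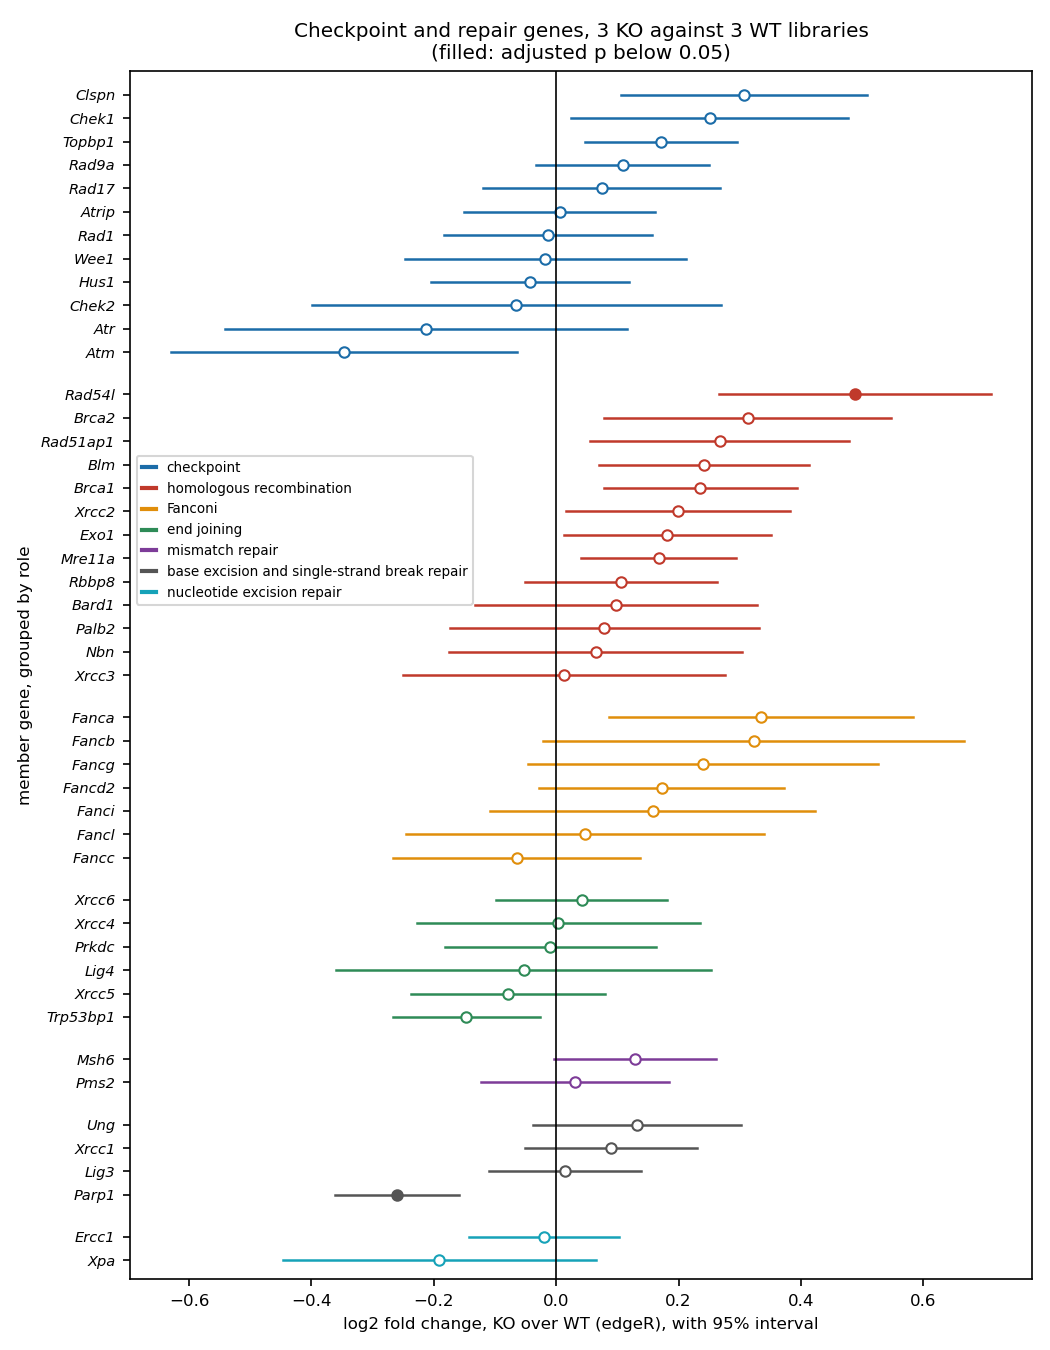
Log2 fold change (KO over WT, x axis) of each of the 46 members (y axis), grouped and coloured by role, with 95% intervals from edgeR over 3 KO and 3 WT libraries; filled points have an adjusted p below 0.05. Only Rad54l (0.49) and Parp1 (-0.26) are filled, and all 13 homologous recombination genes lie right of 0.

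The count of calls depended on WT replicate 1. With it left out, 11 members passed the test, 7 higher (Rad54l, Brca1, Mre11a, Clspn, Topbp1, Fanca and Fancg) and 4 lower (Parp1, Atm, Atr and Trp53bp1), which is 23.9% of the members against 19.7% of all tested genes in that fit. Without KO replicate 1 or without KO replicate 2 no member passed (8 and 6 members had a higher level and 1 and 1 a lower level at an unadjusted p under 0.05), and without KO replicate 3 only Rad54l did. The share of all genes called in those 3 fits was 1.94%, 2.07% and 2.15%. An unadjusted p under 0.05 was reached by 2252 of all 15180 genes tested without KO replicate 1 and by 2367 of 15154 without KO replicate 2. DESeq2 on all 6 libraries called 3 members higher (Rad54l, Brca1 and Clspn) and 1 lower (Parp1), 8.70% of the members against 9.03% of all tested genes. Rad54l and Parp1 were thus in the list called by every fit over all 6 libraries, and the remaining calls came and went with the libraries and the method.

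**Figure D2:**
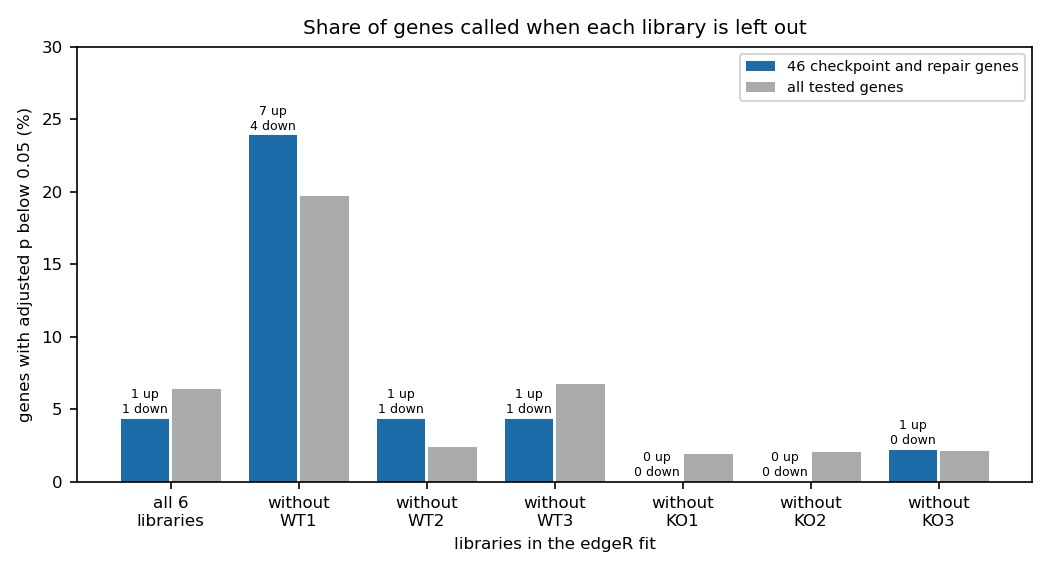
Percent of genes with an adjusted p below 0.05 (y axis) in edgeR fits over all 6 libraries and with each library left out (x axis), for the 46 members and for all tested genes, with the number of members called up and down above the bars. Members and all genes go up together without WT replicate 1 (23.9% and 19.7%) and down together without any KO library.

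Among the larger roles homologous recombination had the most uniform direction, and 1 of its 13 genes passed the test. Rad54l (ENSMUSG00000028702.16), a DNA motor protein that helps a broken end find and invade the matching strand, had 17.3, 18.7 and 15.0 CPM in WT and 25.0, 24.7 and 21.9 CPM in KO. Every KO library was above every WT library. The means were 17.0 ± 1.9 and 23.8 ± 1.7 CPM (SD, n = 3), a 1.40-fold rise (log2 fold change 0.49 ± 0.10 (SE), 95% interval 0.27 to 0.71, edgeR adjusted p = 0.0167). Leaving out KO replicate 1 gave a log2 fold change of 0.45 (adjusted p = 0.115) and leaving out KO replicate 2 gave 0.46 (adjusted p = 0.0988), so that the gene was then not called. Its span overlaps Lrrc41, counted without strand, and Lrrc41 had a log2 fold change of 0.01 ± 0.06 (adjusted p = 0.952).

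The other 12 recombination genes had log2 fold changes from 0.01 (Xrcc3) to 0.31 (Brca2), and the median of the 13 was 0.18. All 13 lay above 0 in each fit over 6 libraries, and 11 to 13 did with a library left out, where Xrcc3, Palb2 or Nbn turned negative. For 7 of these 12 the groups did not overlap, so that with Rad54l 8 of 13 (61.5%) lay wholly higher in KO, against 14.4% of all tested genes. Among 30 further recombination genes outside the member list, 5 lay wholly higher in KO, beside 14.4% of all tested genes, and 1 wholly lower. Counted in either direction, genes without overlap were 20% of the 30 and 61.5% of the 13 members, against 26.8% of all tested genes. Brca1, which steers broken ends toward recombination, had 39.2, 41.2 and 38.8 CPM in WT and 42.9, 49.9 and 47.5 in KO (0.24 ± 0.07, adjusted p = 0.0794). Brca2, which prepares trimmed ends for strand invasion, had 10.3, 10.2 and 11.95 CPM in WT and 12.8, 14.2 and 13.4 in KO (0.31 ± 0.11, adjusted p = 0.114). In both genes the lowest KO library was only a little above the highest WT library. Mre11a, the nuclease of the complex that first trims broken ends, had 57.7, 58.8 and 58.6 CPM in WT and 68.7, 65.1 and 62.7 in KO (0.17 ± 0.06, adjusted p = 0.118). Blm, the helicase that unwinds recombination intermediates, had 28.8, 32.6 and 32.1 CPM in WT and 34.5, 38.9 and 37.2 in KO (0.24 ± 0.08, adjusted p = 0.0970). The WT values of Mre11a lay within about 1 CPM of each other, whereas those of Blm were lowest in replicate 1. Rad51ap1, which promotes strand pairing, had a log2 fold change of 0.27 ± 0.10, Xrcc2, a recombination mediator, 0.20 ± 0.08, and Exo1, the exonuclease that lengthens the single-stranded tail, 0.18 ± 0.08 (adjusted p = 0.135, 0.194 and 0.201). Groups overlapped for Rbbp8 (0.11), Bard1 (0.10), Palb2 (0.08), Nbn (0.06) and Xrcc3 (0.01), which include the partner of BRCA1, the bridge to BRCA2 and a member of the MRE11 complex. Brca1 and Mre11a passed the test without WT replicate 1 (log2 fold changes 0.23 and 0.16, adjusted p = 0.0172 and 0.0445).

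Summed over the 13 recombination genes, the level was 306, 324 and 323 CPM in WT and 363, 363 and 361 CPM in KO. The KO sums were 113.5% to 114.3% of the WT mean, above all 3 WT sums, which spanned 96.3% to 102%. The sum is carried mostly by its high-count genes and was not tested. Genes of S phase moved in the same libraries: of 21 listed, 18 rose (85.7%, against 3.92% of all tested genes called higher) and 0 fell. Without WT replicate 2 or any of the KO libraries, 11 or 12 were called higher. The median log2 fold change of the 21 was 0.39. Their summed CPM, scaled to the library total, was 1612 to 1647 in WT and 2051 to 2068 in KO. Among the 18 were Mcm5 (0.43), part of the replicative helicase, and Rrm2 (0.43), the small subunit of ribonucleotide reductase. Tyms (0.52), which makes thymidylate, and Ccne1 (0.55), the cyclin E that starts S phase, were others. The part of S phase genes in the recombination values was not tested. None of 20 genes of G2 and mitosis passed the edgeR test, and the median log2 fold change of the 20 was 0.05. An unadjusted p under 0.05 was reached by 7 (35%), against 21.1% of all tested genes.

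**Figure D3:**
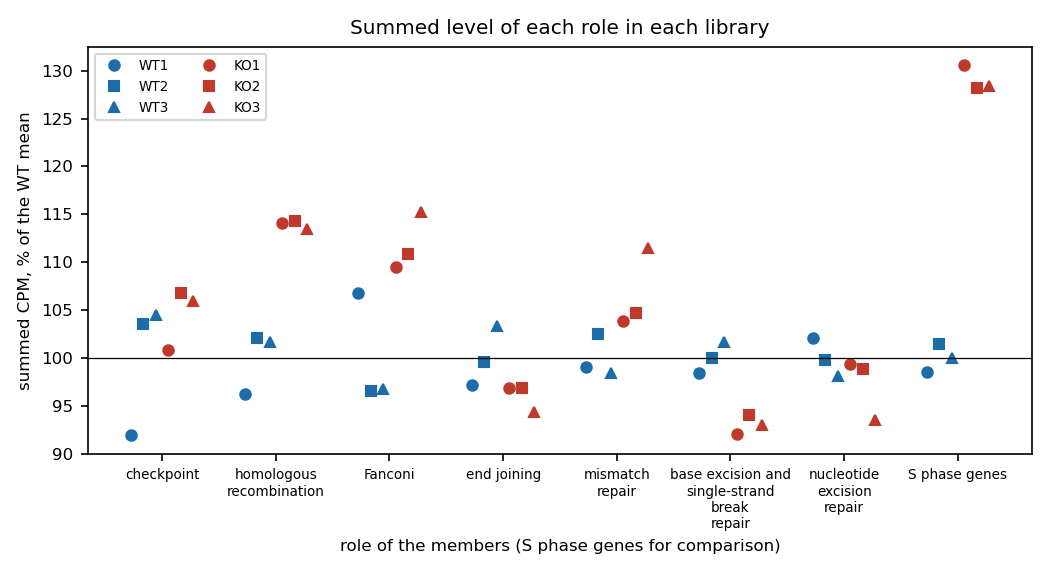
Summed CPM of each role as a percent of its WT mean (y axis) in each library, with 21 S phase genes for comparison (x axis); circles, squares and triangles are replicates 1 to 3. The 3 KO sums of homologous recombination lie near 114%, and those of the S phase genes between 128% and 131%.

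The 12 checkpoint genes did not move together, and none passed the test. Of their log2 fold changes 6 were above and 6 below 0, with a median of 0.00. There were 4 unadjusted p-values under 0.05 (33.3%, against 21.1% of all tested genes). On the ATR side, the mediators lay above 0. Clspn, the claspin that brings CHK1 to ATR, had 22.5, 25.6 and 25.7 CPM in WT and 27.1, 32.0 and 32.1 in KO (0.31 ± 0.09, adjusted p = 0.0757). Topbp1, the activator of ATR, had 155, 172 and 176 CPM in WT and 182, 191 and 194 in KO (0.17 ± 0.06, adjusted p = 0.105). These were the only checkpoint genes whose groups did not overlap, 16.7% of the 12 against 26.8% of all tested genes. Chek1, the kinase downstream, had 16.7, 21.7 and 19.6 CPM in WT and 23.3, 21.7 and 24.1 in KO (0.25 ± 0.10, adjusted p = 0.187), where 1 KO library was level with the highest WT library.

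The apical kinases had negative values and the widest WT spread of the checkpoint genes relative to their level. Atr had 26.0, 35.3 and 40.2 CPM in WT and 25.6, 31.5 and 30.5 in KO (-0.21 ± 0.15, adjusted p = 0.459). Atm had 29.2, 42.5 and 41.4 CPM in WT and 28.3, 29.1 and 31.5 in KO (-0.35 ± 0.13, adjusted p = 0.147). In both genes WT replicate 1 lay with the KO libraries, while WT replicates 2 and 3 lay above all of them. Without that library Atm had a log2 fold change of -0.50 (adjusted p = 3.62e-06) and Atr of -0.37 (adjusted p = 0.00125), and without WT replicate 3 Atr had -0.07 (adjusted p = 0.820). The clamp genes Rad9a (0.11), Rad1 (-0.01) and Hus1 (-0.04), the clamp loader Rad17 (0.07), the ATR partner Atrip (0.01), Wee1 (-0.02) and the ATM target Chek2 (-0.07) all had overlapping groups. Rad9a overlaps the span of Ppp1ca, which had a log2 fold change of 0.14 ± 0.07 (adjusted p = 0.251).

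**Figure D4:**
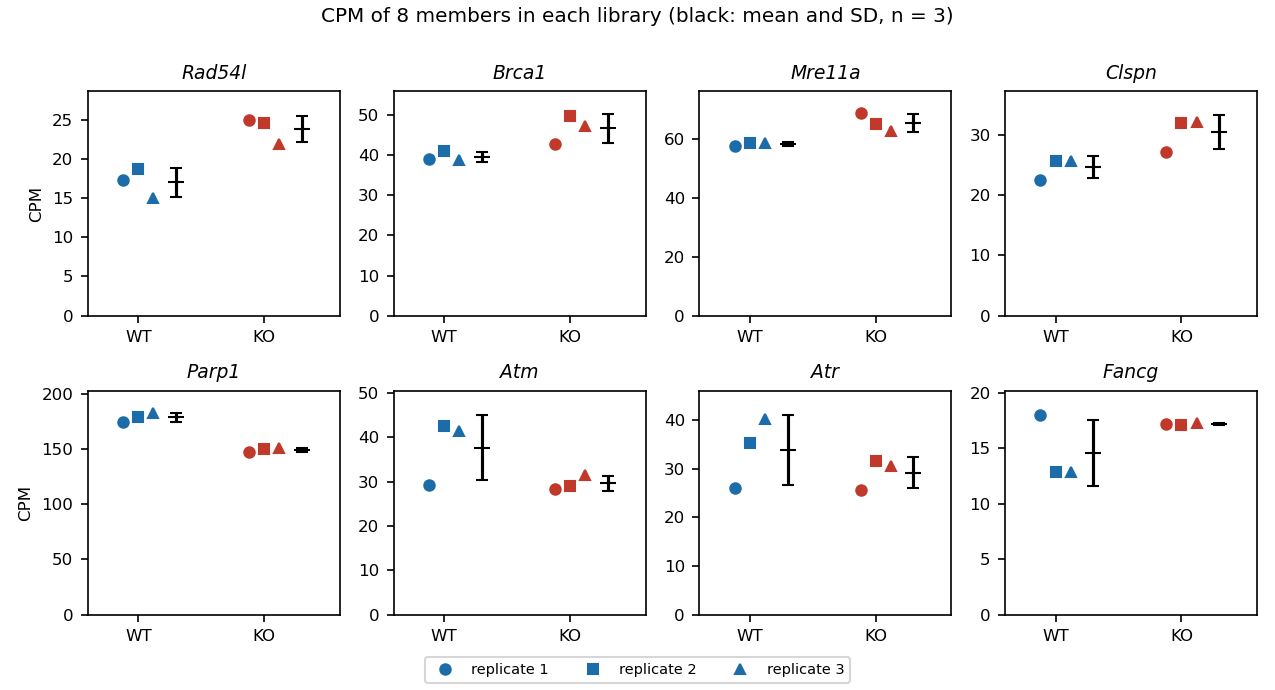
CPM (y axis) of 8 members in each of 3 WT and 3 KO libraries, with mean and SD (n = 3) in black; circles, squares and triangles are replicates 1 to 3 of a group, which share only a number. In Atm and Atr the WT replicate 1 point lies at the level of the KO points, and in Fancg it is the only WT point not below them.

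None of the 7 Fanconi genes passed the test. Of these, 6 lay above 0 and the median log2 fold change was 0.17. An unadjusted p under 0.05 was reached by 1 (14.3%), against 21.1% of all tested genes. Fanca, part of the core complex, had 13.5, 11.9 and 10.9 CPM in WT and 14.7, 14.2 and 16.8 in KO (0.33 ± 0.11, adjusted p = 0.112). It was the only Fanconi gene without overlap, 14.3% of the 7 against 26.8% of all tested genes. The core genes Fancb and Fancg had 0.32 ± 0.16 and 0.24 ± 0.13, and Fancl, the ubiquitin ligase, 0.05 ± 0.13. Fancg had 18.0, 12.8 and 12.8 CPM in WT and 17.2, 17.1 and 17.3 in KO, so WT replicate 1 stood above all KO libraries and the other WT libraries below them. Without that library Fancg had a log2 fold change of 0.42 (adjusted p = 0.00219). The ubiquitinated pair Fancd2 and Fanci had 0.17 ± 0.09 and 0.16 ± 0.12, and Fancc -0.06 ± 0.09. The summed level was 91.2, 82.4 and 82.6 CPM in WT and 93.5, 94.6 and 98.4 CPM in KO, without overlap, and WT replicate 1 was the nearest to the KO sums.

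In end joining 0 of 6 genes passed the test, with a median log2 fold change of -0.03. An unadjusted p under 0.05 was reached by 1 gene (16.7%), against 21.1% of all tested genes. The summed level was 249, 255 and 265 CPM in WT and 248, 248 and 242 CPM in KO, with every KO sum below every WT sum. The margin was small, 249.1 CPM in WT replicate 1 against 248.4 in KO replicate 1. A single gene, Trp53bp1, made up 89.0 of the mean 256 CPM in WT, and the groups of the 5 other genes overlapped. Trp53bp1, whose product 53BP1 shields broken ends from trimming, had 87.6, 88.2 and 91.1 CPM in WT and 78.7, 77.8 and 84.6 in KO. Every KO library lay below every WT library, with a log2 fold change of -0.15 ± 0.05 (adjusted p = 0.147), and -0.16 without WT replicate 1 (adjusted p = 0.0260). Its span overlaps Tubgcp4, which had -0.13 ± 0.08 (adjusted p = 0.398). The Ku subunits Xrcc5 and Xrcc6 had -0.08 ± 0.07 and 0.04 ± 0.06, the kinase gene Prkdc -0.01 ± 0.08, and the ligase gene Lig4 and its partner Xrcc4 -0.05 ± 0.14 and 0.00 ± 0.11. The 95% intervals ran from -0.24 to 0.08 for Xrcc5, from -0.10 to 0.18 for Xrcc6 and from -0.18 to 0.16 for Prkdc.

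Parp1 (ENSMUSG00000026496.12) was the member with the lowest p. Its product senses nicks and marks them with poly(ADP-ribose). Counts were 174, 179 and 182 CPM in WT and 147, 150 and 150 CPM in KO, and the groups did not overlap. The means were 178 ± 4.0 and 149 ± 1.9 CPM (SD, n = 3), a fall of 16.5% (log2 fold change -0.26 ± 0.05 (SE), 95% interval -0.36 to -0.16, edgeR adjusted p = 0.00689). The value moved little without any KO library (-0.25 to -0.27), but the adjusted p then lay above the threshold, at 0.0670, 0.0549 and 0.0526 without replicates 1, 2 and 3. Without WT replicate 1 it was 8.38e-06. The 3 other genes of base excision and single-strand break repair did not follow: Xrcc1, the scaffold that PARP1 recruits, had 0.09 ± 0.06, its ligase partner Lig3 0.01 ± 0.06, and Ung, which removes uracil, 0.13 ± 0.08 (adjusted p = 0.475, 0.914 and 0.365). Ung had 22.2, 24.4 and 22.8 CPM in WT and 24.9, 26.0 and 25.1 in KO, without overlap. The 4 genes summed to 327, 332 and 338 CPM in WT and 306, 313 and 309 CPM in KO, lower in every KO library. Parp1 alone made up 178 of the mean 332 CPM in WT, and the log2 fold changes of the 3 others were above 0. The lower sum is therefore that of Parp1 and not of the role.

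The mismatch repair genes Msh6, which recognises mismatches, and Pms2, which nicks the new strand, had 0.13 ± 0.06 and 0.03 ± 0.07 (adjusted p = 0.247 and 0.850). Msh6 had 51.0, 54.3 and 51.6 CPM in WT and 55.7, 56.1 and 59.7 in KO, without overlap, and the sum of both genes was 81.6 to 84.9 CPM in WT and 86.1 to 92.4 in KO. In nucleotide excision repair, Ercc1, which with XPF cuts beside the lesion, had -0.02 ± 0.06, and Xpa, which verifies the damage, -0.19 ± 0.12 (adjusted p = 0.881 and 0.389), both with overlapping groups.

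The wider pathway was read from 111 further checkpoint and repair genes, all tested. Of these, 4 rose and 3 fell (6.31% called, against 6.39% of all tested genes), and the median log2 fold change was 0.02. Among the risers, Tipin, of the fork protection complex, went from 47.7, 51.8 and 50.3 CPM in WT to 65.0, 67.0 and 63.8 in KO (0.39 ± 0.06, adjusted p = 0.00291). Its groups did not overlap, and it was called with any library left out. Timeless, Tipin's partner (0.29 ± 0.07, adjusted p = 0.0264), and Rpa1, the large subunit of the protein that coats single-stranded DNA (0.26 ± 0.06, adjusted p = 0.0218), also rose and are named outside the naming rule. Neither was called without WT replicate 2 or without any of the KO libraries. The fallers included Cdc25b, a phosphatase that opposes WEE1 (-0.38 ± 0.07, adjusted p = 0.00951), and Ercc6, which couples excision repair to transcription (-0.25 ± 0.05, adjusted p = 0.0181). Ercc6 was not called without WT replicate 2 or any of the KO libraries, and Cdc25b lost its call when WT replicate 2 was dropped and when either of the first 2 KO replicates was. The 30 further recombination genes had a median of 0.06 with 18 above 0, less uniform in sign than the 13 members, a difference that was not tested.

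**Figure D5:**
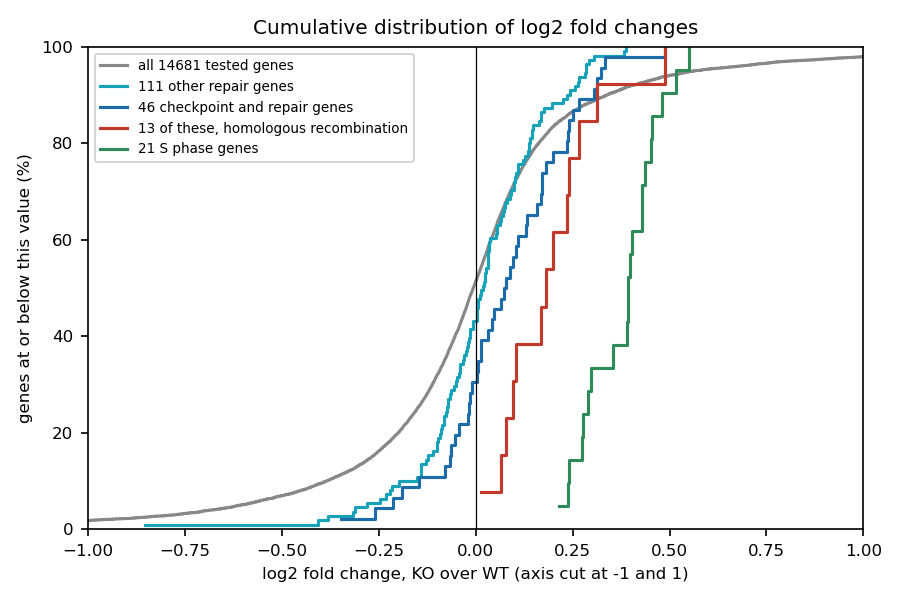
Cumulative percent of genes (y axis) at or below each log2 fold change (KO over WT, x axis, shown from -1 to 1) for all tested genes, 111 other repair genes, the 46 members, the 13 recombination genes among them and 21 S phase genes. The members' median is 0.08, that of the recombination genes 0.18 and that of the S phase genes 0.39.

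Genes that p53 switches on after damage were read beside the repair genes. Of 25 listed, 3 rose (Plk3 0.60, Plk2 0.43 and Perp 0.21) and 2 fell (Trp53inp1 -0.47 and Phlda3 -0.24), and the median was -0.03. The called genes were 20% of the list, against 6.39% of all tested genes. Groups did not overlap for 44%, against 26.8%, and 36% had an unadjusted p under 0.05, against 21.1%. The summed CPM was 2540 to 2570 in WT and 2623 to 2668 in KO. Scaled to the library total, the sums overlapped (2556 to 2609 and 2606 to 2644). The usual damage readouts Cdkn1a (0.10 ± 0.05) and Mdm2 (0.09 ± 0.04) did not pass the test (adjusted p = 0.324 and 0.268).

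Markers of other cells also moved with the groups. In this paragraph the summed CPM are scaled to the library total. The sums for gamma delta T cells were 51.8 to 63.4 CPM in WT and 95.4 to 99.5 in KO (4 of 6 tested markers higher), for B cells 69.4 to 82.2 and 95.3 to 103 (2 of 4 higher and 1 lower), for NK and innate lymphoid cells 14.1 to 18.2 and 26.3 to 32.5 (3 of 3 higher) and for myeloid cells 2.48 to 2.86 and 6.16 to 7.84 (1 of 4 higher). Dendritic markers summed to 18.2 to 19.6 and 20.6 to 22.9 CPM (0 of 1 tested called), erythroid markers to 0.396 to 0.840 and 1.48 to 4.90 (1 of 1 higher), stromal and endothelial markers to 29.8 to 34.8 and 27.1 to 28.7 (0 of 2), and the CD8 markers overlapped (0 of 2). The CD4 and Th17 markers summed to 577 to 788 and 457 to 486 CPM (4 of 7 lower). Each sum without overlap had p = 0.1 in a two-sided exact permutation test, the smallest that 3 against 3 libraries allow, and 0.133 after adjustment over the lists. Ncr1, Klrb1c, S100a8, S100a9, Clec9a, Siglech and Hba-a2 had 0 counts in all 6 libraries. The part of these cells in the repair gene values was not tested, and in such bulk samples fewer cells of a type and less RNA per cell cannot be told apart.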

How the data were processed

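RNA-seq of 3 WT and 3 KO libraries was used; the other 7 of 13 samples were not analysed here. Per the labels' protocols, TRIzol RNA went into TruSeq libraries. Per the file headers, the authors counted reads over GENCODE vM33 exons, summed by gene, with featureCounts 2.0.1, and deposited the raw counts; no strand, multi-mapping or paired option is printed, so reads of overlapping genes (26 members overlap another gene's span in RefSeq), antisense genes and near-identical copies are lost or shared. In the record of units the deposited column of WT replicate 2 is entered as other, because its header is misread; it holds raw counts like the rest. The aligner's version and the build of the genome were not given in the sources used here. Low counts were mostly even (65.6% to 67.7% of counts from 1 to 20, against 48.8% to 50.9% from 1000), as happens if each mate of a pair counts separately. If that holds here, which was not tested, fewer fragments than counts stand behind each value.

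Gene IDs were matched to symbols for 51948 of 56941 (91.2%). Libraries were grouped by their titles and compared with edgeR 4.0.16 in R 4.3.3: filterByExpr, TMM (factors 0.984 to 1.016), a robust quasi-likelihood fit, F-test and Benjamini-Hochberg adjustment over 14681 genes, threshold 0.05; the biological coefficient of variation was 9.28%. CPM use TMM library sizes unless the library total is named, and levels are not compared between genes, since no lengths were used. The 95% interval of a log2 fold change reached a median of 0.25 to either side for the 18 members with 5 to 20 CPM and 0.16 for the 28 from 20 CPM. DESeq2 1.42.0, limma 3.58.1 with and without quality weights, other scalings and filters, a replicate block and leaving out each library were alternatives. The procedures were tested on simulated data; DESeq2, an alternative only, made more false calls there than edgeR and passed only after the tolerance set for that test was widened, so its extra calls carry less weight.

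All 46 members are named; of the 111 further genes, up to 2 per role with the largest change past the threshold; and Chaf1b and Chaf1a. Promoters are those of up to 4 members past the threshold and of 2 not past it with the highest mean CPM. Members and lists were chosen with earlier results of these data known, and the promoter words after the counts were in hand. Some genes of the further lists are not reported here.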

Additional observations from a re-analysis of the deposited data

How the results depend on the processing

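Of the 644 fits of members under the alternatives, 579 kept direction and side of the threshold, 24 gained a call, 5 lost one and 36 changed sign, and 30 of the sign changes came from leaving out a library. The sign changes fell on 15 members, none was called, and the largest value after one was 0.0742 in size. The cause of these moves was not tested. Over all tested genes, 938 were called, 576 higher and 362 lower. The counts were 2934, 1558 and 1376 with limma-voom and quality weights. Without a filter on low counts 1568 were called, 746 of them lower, and with DESeq2 569 were lower. Leaving out each library in turn gave 295 to 2961 genes called, 225 to 1589 higher and 70 to 1372 lower, most without WT replicate 1. Members called numbered 9 higher and 3 lower with quality weights (26.1% of members against 20% of all tested genes), 3 and 2 without a filter (10.9% against 6.01%) and 3 and 1 with DESeq2 (8.70% against 9.03%), and 0 to 7 higher and 0 to 4 lower leaving out a library. The further repair genes called numbered 11 higher and 7 lower with quality weights, 7 and 6 without a filter, 7 and 5 with DESeq2, and 1 to 10 higher and 0 to 7 lower leaving out a library.

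Replicate numbers did not pair the libraries: same-numbered deviations correlated at -0.04, -0.03 and 0.00. With the replicate number as a block, Rad54l and Parp1 were called as without it, 231 genes of all tested were lower, and Timeless was no longer called (log2 fold change 0.29).

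Sign changes with quality weights were Atrip -0.021, Rad1 0.032, Fancl -0.0098 and Xrcc4 -0.0081, and Xrcc4 was -4.9e-05 without a filter and -0.00042 with a stricter one of 5 CPM. Leaving out each library, the log2 fold changes ranged from -0.048 to 0.040 for Atrip, -0.26 to 0.019 for Chek2, -0.096 to 0.033 for Wee1, -0.061 to 0.017 for Rad1, -0.0083 to 0.17 for Rad17, -0.017 to 0.14 for Palb2, -0.074 to 0.11 for Xrcc3, -0.024 to 0.19 for Nbn, -0.041 to 0.095 for Fancl, -0.037 to 0.039 for Xrcc4, -0.21 to 0.047 for Lig4, -0.059 to 0.021 for Prkdc, -0.0051 to 0.045 for Pms2, -0.014 to 0.059 for Lig3 and -0.047 to 0.0062 for Ercc1. The log2 ratio of the CD8 sum was 0.016 with TMM library sizes and -0.096 to 0.099 leaving out a library, and that of the G2 and mitosis sum -0.015 to 0.046. Over the whole 300-base entries, 8 of 38 members held an E2F word.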
